A study of Mus musculus with 8 samples.

Results

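The Myc, Max and Mxd network is a small group of transcription factor genes, and it was taken here as 8 members: Myc and Mycn, their partner Max, and the antagonists Mxd1, Mxd3, Mxd4, Mxi1 and Mnt. The members were found by the gene name that the array files give to each spot that is not a control. All 8 genes of the 27240 named on the array were found, with 10 of its 39429 probes. On mm9 the brighter or single probes lie at chr15:61821417-61821476 (Myc), chr12:12943193-12943252 (Mycn), chr12:78038272-78038331 (Max), chr6:86597190-86597249 (Mxd1), chr13:55427000-55427059 (Mxd3), chr5:34519323-34519382 (Mxd4), chr19:53450238-53450297 (Mxi1) and chr11:74658915-74658974 (Mnt), and the exon or UTR they fall in was not examined. Of the 8, 7 passed the filter on dim probes and were among the 19778 genes tested, and Mxi1 did not pass.

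Proteins of the network bind DNA only as pairs, and Max is the common partner. Myc or Mycn paired with Max activates genes of growth, ribosome production and metabolism, while Mxd1, Mxd3, Mxd4, Mxi1 or Mnt paired with Max binds the same E-box sites and represses them through the Sin3 corepressor. JAK kinases activate the transcription factor STAT3, of which Myc is a known target, and the Myc transcript is short-lived, so its level can change within hours.

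The tumours came from female C57BL/6JTgMISIIR-TAg mice. In that line SV40 T antigen, which inactivates the p53 and Rb proteins, is driven by the promoter of Amhr2, which encodes the receptor for anti-Müllerian hormone, so all tumours, controls included, carried the same viral oncogene. Mice bearing ovarian tumours of about 500 mm3 were given the JAK1 and JAK2 inhibitor AZD1480 at 30 mg/kg (4 mice) or vehicle alone (4 mice). In both groups the vehicle was a mix of 0.5% hypermellose and 0.1% Tween 80. Tumour tissue was collected after 6 h. Ages are not given in the sources used here. Every tumour had 1 one-colour array. The arrays lay on 2 slides, scanned apart, with 2 AZD1480 and 2 vehicle tumours on each. The comparison asked which transcripts differ soon after JAK inhibition.

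Levels are log2 processed intensities minus the 75th percentile of their array, so 0 is the 75th percentile and levels of different genes cannot be set against each other. Between 66.9% and 76.4% of spots were well above background on an array, and 4 arrays per group limit the precision. Of the 15 epithelial and Müllerian tumour markers, all but Cdh1, Muc16 and Cldn4 were well above background on all 8 arrays, Krt8, Krt18, Pax8 and Wt1 among them. Cdh1 and Muc16 were so on 7 arrays and Cldn4 on 6. AZD1480 replicate 1 stood apart from the rest. Its genes lay at a median of 0.50 from the mean of the other arrays, against 0.25 to 0.35 for the others, and its ciliated cell markers were far below those of the other tumours. The members' and lists' differences are therefore given with and without that array.

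Sequences are shown for the Myc probe, since the largest difference rests on it, and for the promoters of Mycn and Mxd1, which shared their highest and second highest arrays, and of Mxd4 and Mnt, which hold the network's own site. The Myc probe lies at chr15:61821417-61821476 on the plus strand of the mm9 build.
Myc probe: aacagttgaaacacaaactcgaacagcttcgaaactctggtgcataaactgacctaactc
The promoters are the 250 bases before the RefSeq start in GRCm38.p6, printed 5′ to 3′ on the strand of the gene. The windows are chr12:12941837-12942086, minus strand for Mycn, chr6:86669160-86669409, minus strand for Mxd1, chr5:34187711-34187960, minus strand for Mxd4 and chr11:74830674-74830923, plus strand for Mnt. Capitals mark TTTGGCGC in Mycn, CCAAT in Mxd1 and the E-box CACGTG in Mxd4 and Mnt.
Mycn: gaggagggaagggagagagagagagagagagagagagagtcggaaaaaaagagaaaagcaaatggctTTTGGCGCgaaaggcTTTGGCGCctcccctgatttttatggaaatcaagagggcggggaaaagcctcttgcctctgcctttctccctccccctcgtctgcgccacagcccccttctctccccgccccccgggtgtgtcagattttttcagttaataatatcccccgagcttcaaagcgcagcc
Mxd1: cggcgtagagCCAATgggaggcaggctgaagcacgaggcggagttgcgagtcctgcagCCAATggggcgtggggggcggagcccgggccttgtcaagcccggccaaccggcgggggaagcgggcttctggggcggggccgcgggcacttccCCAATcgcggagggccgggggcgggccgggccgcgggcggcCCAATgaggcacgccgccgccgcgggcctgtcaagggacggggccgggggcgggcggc
Mxd4: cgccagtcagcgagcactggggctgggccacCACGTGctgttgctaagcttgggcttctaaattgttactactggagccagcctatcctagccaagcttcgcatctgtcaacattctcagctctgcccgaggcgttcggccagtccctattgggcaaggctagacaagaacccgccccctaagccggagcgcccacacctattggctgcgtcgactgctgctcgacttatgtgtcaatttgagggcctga
Mnt: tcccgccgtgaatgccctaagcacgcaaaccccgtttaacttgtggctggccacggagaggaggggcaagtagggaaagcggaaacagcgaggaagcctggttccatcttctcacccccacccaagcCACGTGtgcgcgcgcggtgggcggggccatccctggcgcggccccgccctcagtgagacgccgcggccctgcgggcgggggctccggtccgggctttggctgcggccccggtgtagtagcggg
Of the 8 members, 7 matched the promoter table, with 9 windows, and Myc did not. Motifs were searched on both strands. The E-box CACGTG, the preferred site of the network's own pairs, was in the windows of Mxd4 (at -219) and Mnt (at -123) and in 6.02% of all 32851 windows. The E2F-type motif TTTGGCGC occurred 2 times in Mycn, at -183 and -168, and in 0.417% of all windows. CCAAT occurred 4 times in Mxd1 and 2 times in Mxd4 (at -102 and -50, not in capitals there), where 33.8% of windows hold it at least once. The STAT-type motif TTCNNNGAA was in none of the 9 windows and in 7.02% of all. GGGCGG, the GC box, was in 32.7% of all windows and in all 7 matched members but Max, among them 6 times in Mxd1 and 8 times in Mxd3. A match describes letters in these windows only.

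Myc, the central activator, had the largest difference of the tested members with all 8 arrays, while without AZD1480 replicate 1 that of Mycn was larger (-0.36 for Mycn and -0.28 for Myc). Its level was -0.40, 0.51, 0.99 and 0.71 in AZD1480 replicates 1 to 4, against 1.11, 1.10, 0.75 and 1.09 in vehicle replicates 1 to 4. Vehicle replicates 1, 2 and 4 lay close together, and vehicle replicate 3 was lower, below AZD1480 replicate 3, so the groups overlapped. Myc averaged 0.45 ± 0.60 in AZD1480 tumours and 1.02 ± 0.18 in vehicle tumours (SD, n = 4 each), a log2 difference of -0.56 ± 0.30 (moderated SE) or 1.48-fold lower. It did not pass limma's test over all genes (adjusted p = 0.974, unadjusted p = 0.0992), and its 95% interval ran from -1.26 to 0.13.

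The Myc difference depended in part on AZD1480 replicate 1. Without that array the AZD1480 mean was 0.74 ± 0.24 (n = 3) and the difference -0.28, with an interval of -0.70 to 0.15 (limma adjusted p = 0.996). It was -1.05 within slide 1, which holds AZD1480 replicate 1, and -0.071 within slide 2. On slide 1, AZD1480 replicate 2 (0.51) also lay below both vehicle tumours (1.11 and 1.10). Leaving out AZD1480 replicate 3 brought the Myc difference to -0.74 (limma unadjusted p = 0.0417, adjusted p = 0.594). In bulk tumour RNA, fewer Myc-expressing cells and less Myc RNA per cell cannot be told apart.

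**Figure D1:**
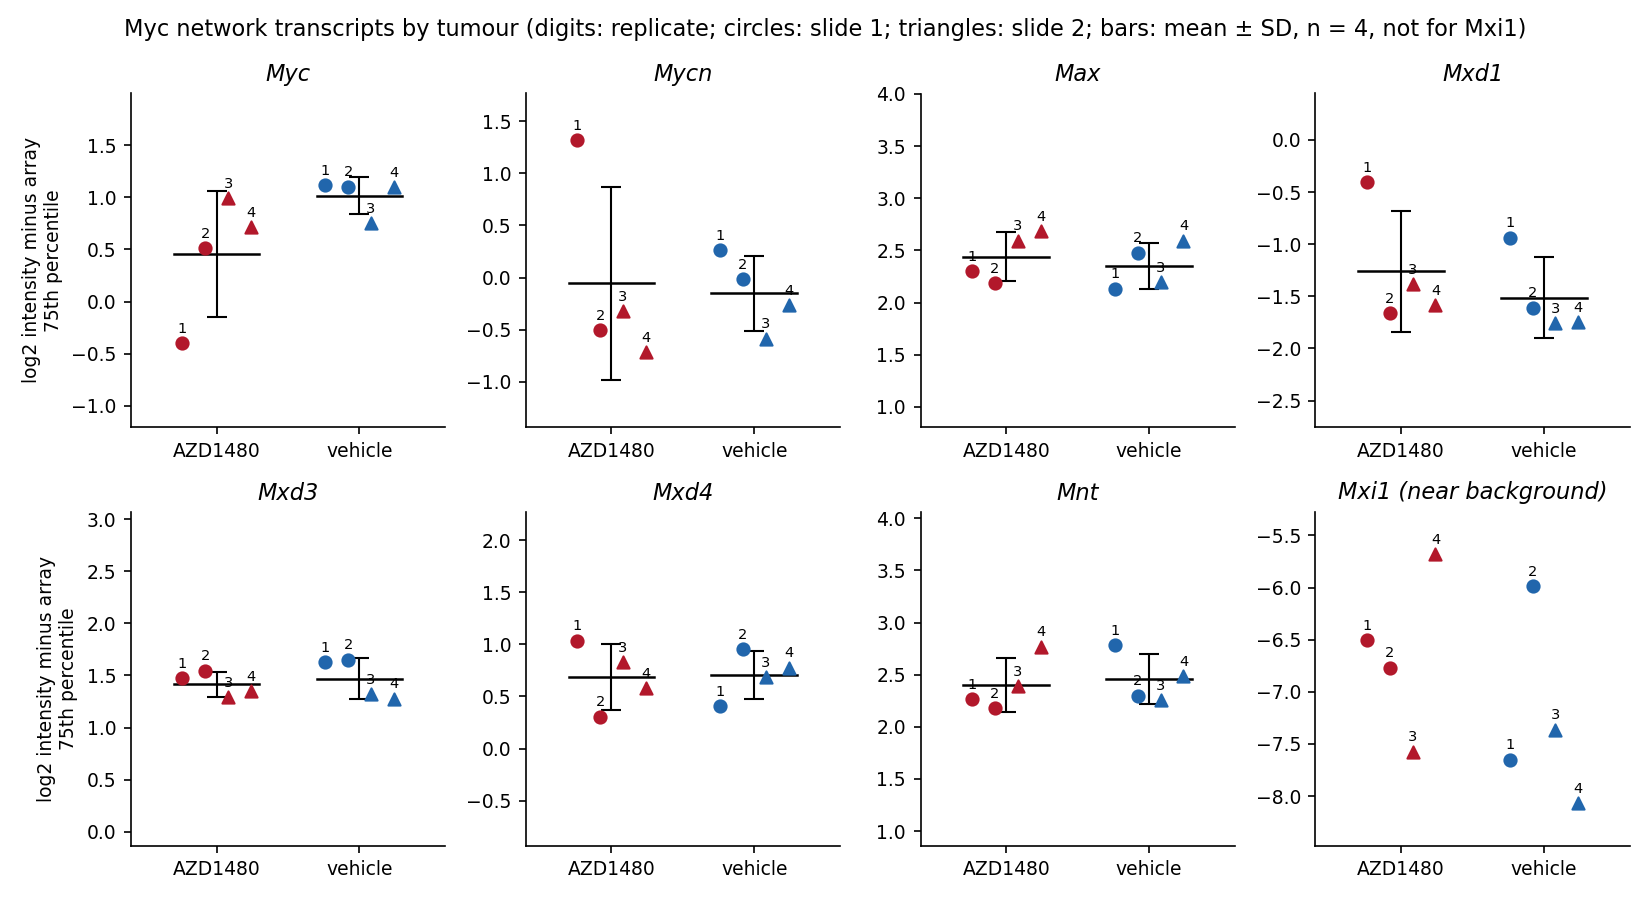
Level of each member (y axis: log2 processed intensity minus the array's 75th percentile, the same span in every panel) in the 4 AZD1480 and 4 vehicle tumours, with replicate numbers, slide by marker shape, and mean ± SD. AZD1480 replicate 1 is the lowest array for Myc (-0.40) and the highest for Mycn (1.32), Mxd1 (-0.41) and Mxd4 (1.03).

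Mycn, the paralog best known from neural and embryonic tissue, was not lower on average. Its level was 1.32, -0.50, -0.32 and -0.71 in AZD1480 replicates 1 to 4, against 0.26, -0.02, -0.59 and -0.26 in vehicle replicates 1 to 4. AZD1480 replicate 1 was far above all other tumours, and the other AZD1480 tumours lay within or just below the vehicle range. The means were -0.06 ± 0.93 in AZD1480 and -0.15 ± 0.36 in vehicle tumours, a log2 difference of 0.095 ± 0.45 (limma adjusted p = 0.993; 95% interval -0.95 to 1.14). Without AZD1480 replicate 1 the sign turned, to -0.36 with an interval of -0.91 to 0.18 (limma adjusted p = 0.996).

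Max, the obligate partner, was well above background on every array. Its level was 2.30, 2.18, 2.59 and 2.68 in AZD1480 replicates 1 to 4, against 2.13, 2.48, 2.19 and 2.59 in vehicle replicates 1 to 4. High and low tumours were mixed between the groups. The difference was 0.091 ± 0.19 (limma adjusted p = 0.982), with an interval of -0.34 to 0.52, and 0.14 without AZD1480 replicate 1. Within slide 1 it was -0.063 and within slide 2 it was 0.24.

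Mxd1, the antagonist that rises when many cell types stop dividing and differentiate, shared its highest and second highest tumours with Mycn. The order of the other tumours differed between Mxd1 and Mycn. The brighter Mxd1 probe was at -0.41, -1.66, -1.38 and -1.59 in AZD1480 replicates 1 to 4, against -0.94, -1.61, -1.76 and -1.75 in vehicle replicates 1 to 4. AZD1480 replicate 1 was the highest and vehicle replicate 1 the second highest, while the other 6 tumours lay lower and close together. The difference was 0.25 ± 0.33 (limma adjusted p = 0.976; interval -0.51 to 1.02), and -0.0304 without AZD1480 replicate 1. A separate Mxd1 probe, 1803 bases away on the genome, gave -0.34, -2.26, -1.80 and -1.76 in AZD1480 replicates 1 to 4, against -0.91, -1.82, -2.19 and -1.94 in vehicle replicates 1 to 4. The same tumours were highest and second highest with it, and its difference was 0.18, or -0.22 without AZD1480 replicate 1.

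Mxd3, an antagonist that in many cells is expressed during proliferation, split by slide and not by treatment. Its level was 1.47, 1.55, 1.29 and 1.35 in AZD1480 replicates 1 to 4, against 1.63, 1.65, 1.32 and 1.28 in vehicle replicates 1 to 4. All 4 arrays of slide 1 lay above all 4 of slide 2 in both groups, which was also so, in one direction or the other, for 11.4% of all genes. The treatment difference was -0.054 ± 0.16 (limma adjusted p = 0.987), the narrowest interval of the tested members, -0.42 to 0.31, and it was -0.073 without AZD1480 replicate 1.

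Mxd4, an antagonist expressed in many resting tissues, had a brighter probe at 1.03, 0.30, 0.83 and 0.58 in AZD1480 replicates 1 to 4, against 0.41, 0.95, 0.68 and 0.78 in vehicle replicates 1 to 4. The groups covered almost the same range. The difference was -0.02 ± 0.21 (limma adjusted p = 0.995; interval -0.50 to 0.46), and -0.13 without AZD1480 replicate 1. Its sign turned with normexp background correction (0.01) and in the authors' value table (0.029). A dimmer probe shares 13 bases of the genome with it and was 2.41 to 3.37 lower on each array, with a difference of 0.085.

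Mnt, the antagonist that is present in dividing and resting cells alike, was at 2.26, 2.18, 2.39 and 2.77 in AZD1480 replicates 1 to 4, against 2.78, 2.30, 2.25 and 2.48 in vehicle replicates 1 to 4. The highest tumour of each group was nearly equal. The difference was -0.056 ± 0.20 (limma adjusted p = 0.990; interval -0.51 to 0.40), at -0.32 within slide 1 and 0.21 within slide 2. Leaving out AZD1480 replicate 1 put it at -0.011.

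Mxi1, the remaining antagonist, was near background. Its 1 probe was well above background on 2 of 4 AZD1480 arrays (replicates 1 and 4) and on 1 of 4 vehicle arrays (replicate 2). It read -6.50, -6.77, -7.57 and -5.68 in AZD1480 replicates 1 to 4, against -7.65, -5.99, -7.36 and -8.07 in vehicle replicates 1 to 4, and it was not tested. This probe says nothing of Mxi1 transcripts that it does not match.

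Over the network, 0 of the 7 tested members passed limma's test at an adjusted p under 0.05, as did 0 (0%) of all 19778 genes. None had an unadjusted p under 0.05, which 3.46% of all genes had (1.72% higher and 1.74% lower in AZD1480 tumours). In none were the AZD1480 and vehicle tumours fully separated, as they were in 2.62% of all genes (1.21% higher and 1.41% lower). The differences were positive for 3 members (Mycn, Max and Mxd1) and negative for 4 (Myc, Mxd3, Mxd4 and Mnt), with a median of -0.02, beside a median of 0.045 over all genes, 56.5% of which were positive. Without AZD1480 replicate 1, 1 was positive (Max) and 6 negative, with a median of -0.073 beside 0.023 over all genes. Again none had an unadjusted p under 0.05 (4.34% of all genes, 2.2% higher and 2.14% lower) and none was separated (4.77%, 2.37% higher and 2.41% lower). A p that misses the threshold does not show that a member was equal in both groups, and the intervals of Myc, Mycn and Mxd1 each reach past 1 on the log2 scale in 1 direction.

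**Figure D2:**
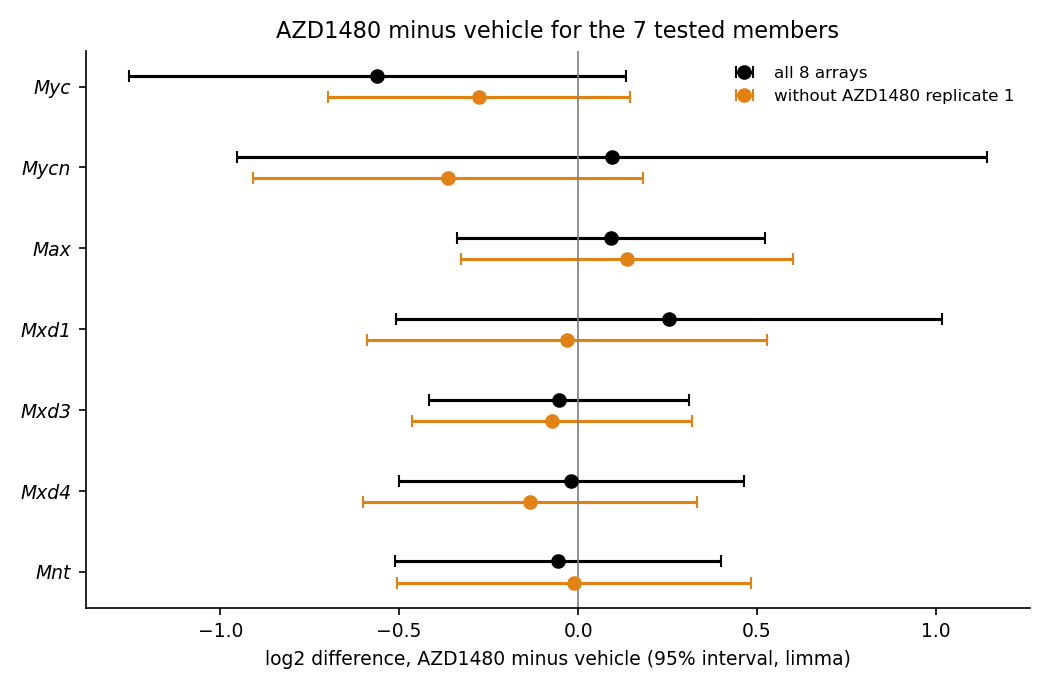
Log2 difference, AZD1480 minus vehicle (x axis), with limma's 95% interval for the 7 tested members, from all 8 arrays (black) and without AZD1480 replicate 1 (orange). All intervals hold 0, Myc reaches from -1.26 to 0.13, and Mycn is at 0.095 with all arrays and at -0.36 without AZD1480 replicate 1.

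The members that varied most did so mainly in AZD1480 replicate 1. Relative to the mean of the other 7 arrays, that tumour was at -1.30 for Myc, 1.62 for Mycn and 1.12 for Mxd1. Deviations of this array were no larger in 79.2%, 83.6% and 75.8% of all genes, in that order. Mxd4 was at 0.39, and Max, Mxd3 and Mnt were within 0.19 of the other arrays.

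Cell type markers moved in the same tumour. Amhr2, whose promoter drives the transgene, was at 6.83 in AZD1480 replicate 1 and -0.75 to 0.62 in the other AZD1480 tumours, against 5.39 in vehicle replicate 1 and 0.07 to 1.43 in the other vehicle tumours. AZD1480 replicate 1 and vehicle replicate 1 were thus the highest and second highest for Amhr2, Mycn and Mxd1 alike. The share of all genes with this order was not counted. The deviations of these tumours correlated at 0.36 across all tested genes, so the order is not particular to the genes named. Of the 10 granulosa and luteal markers 5 were tested, and their summed level, in multiples of the array's 75th percentile, was 11.5 to 40.0 in AZD1480 tumours (40.0 in replicate 1) and 10.98 to 31.8 in vehicle tumours. Inha, the inhibin alpha subunit gene, was at 4.44 in AZD1480 replicate 1 and -3.67 to -2.78 in the other AZD1480 tumours, against 2.005 and 1.56 in vehicle replicates 1 and 3 and -4.18 to -2.98 in vehicle replicates 2 and 4. Vehicle replicate 3 was high for Inha and low for Mycn (-0.59) and Mxd1 (-1.76). Inhbb, of the same list, was also highest in AZD1480 replicate 1 (1.88), while the granulosa marker Foxl2 varied little. Foxl2 was at 3.53 in AZD1480 replicate 1 and 3.27 to 3.58 in the other AZD1480 tumours, against 3.32 to 3.65 in vehicle tumours. The summed level therefore does not describe each of its markers. The granulosa markers Fshr, Lhcgr, Cyp19a1, Cyp11a1 and Amh did not pass the filter on dim probes.

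The 9 oviduct ciliated cell markers, all tested, summed to 1.94 to 92.3 in AZD1480 tumours (1.94 in replicate 1), against 76.5 to 126 in vehicle tumours. Foxj1, the master regulator of motile cilia, lay 5.20 below its mean over the arrays in AZD1480 replicate 1, and Dnah5 was not well above background there, as the other 8 markers were. The 15 macrophage and monocyte markers summed to 17.5 to 70.9 in AZD1480 tumours (17.5 in replicate 1 and 70.9 in replicate 4), against 41.1 to 48.6 in vehicle tumours. Without Itgam, which alone made up 45.8 of the sum in AZD1480 replicate 4, they summed to 10.4 to 41.0 in AZD1480 tumours and 28.0 to 40.3 in vehicle tumours. Of the 15 differences 14 were negative, and 11 without replicate 1, and limma called 0. An unadjusted p under 0.05 was reached by 3 (Fcgr1, Fcgr3 and Mrc1, named after their values were seen), with and without that array, beside 1.74% of all genes with a negative difference. In Fcgr1 and Fcgr3 all AZD1480 tumours lay below all vehicle tumours, beside 1.41% of all genes. Such counts were not particular to this list. Of the 15 epithelial differences 14 were also negative, and 11 without replicate 1, with 1 (Wfdc2) at an unadjusted p under 0.05 and 0 without that array. Of the 9 endothelial differences 6 were negative. There 2 (Vwf and Lyve1) had an unadjusted p under 0.05, with and without that array, and Vwf was lower without overlap. Limma called 0 in both lists. The 10 fibroblast and stroma markers summed to 10.9 to 34.2 in AZD1480 tumours (10.9 in replicate 1), against 26.3 to 37.3 in vehicle tumours. The 15 epithelial tumour markers, all tested, summed to 66.0 to 185 in AZD1480 tumours (185 in replicate 1) and 66.6 to 199 in vehicle tumours. Amhr2 alone made up 113 of the 185, and without it the sums were 64.4 to 107 in AZD1480 tumours (71.6 in replicate 1) and 65.2 to 157 in vehicle tumours. Krt7, Krt18, Wfdc2, Msln and Pax8 were each at their lowest in AZD1480 replicate 1. Others of this list went the other way. Wt1 was at its highest there (5.20), and Muc16 (-2.71) and Cldn3 (1.35) lay above the other AZD1480 tumours. By the mean log2 level of the list, that array ranked 4 from the highest. Of the other lists, red blood cell markers summed to 18.1 to 96.9 in AZD1480 tumours (96.9 in replicate 1) and 6.69 to 149 in vehicle tumours, and endothelial markers to 2.78 to 5.06 in AZD1480 tumours and 3.503 to 5.91 in vehicle tumours. T and NK cell markers summed to 2.01 to 2.28 in AZD1480 tumours and 2.06 to 2.27 in vehicle tumours. These even sums hid opposite moves in AZD1480 replicate 1. Cd3d, Cd2, Lck and Gzma were each at their lowest there, and Cd3e, Cd4 and Nkg7 each at their highest. The mean log2 level of the list was lowest there (-4.11, against -3.36 to -2.89 on the other arrays). The part of these cell type differences in the Myc, Mycn and Mxd1 values was not tested.

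**Figure D3:**
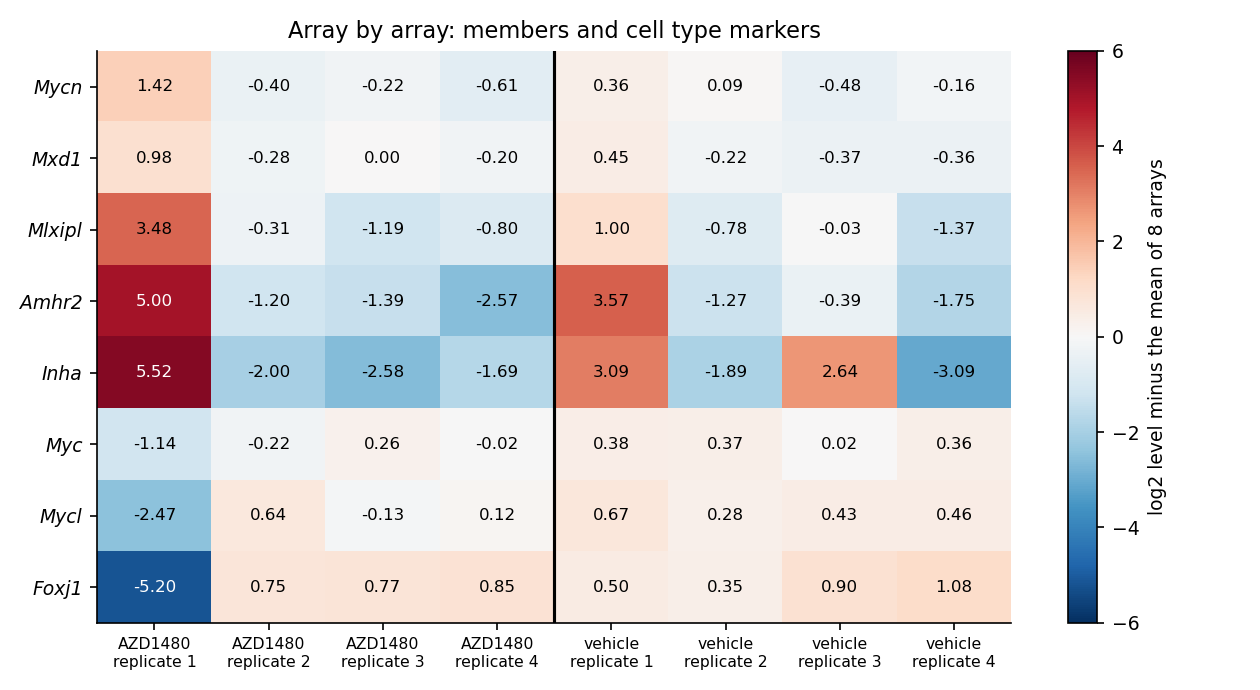
Level of each gene minus its mean over the 8 arrays (colour and digits, log2; columns are the AZD1480 then the vehicle tumours), for Mycn, Mxd1, Mlxipl, Amhr2, Inha, Myc, Mycl and Foxj1. AZD1480 replicate 1 is highest for Mycn (1.42), Mxd1 (0.98) and Amhr2 (5.004) and lowest for Myc (-1.14) and Foxj1 (-5.20).

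Of the nearest relatives of the network, Mycl and Mlxipl also stood apart in AZD1480 replicate 1, while Mlxip and Mlx lay within the range of the other arrays there. Mga was at its highest in that tumour (-1.01, against -1.77 to -1.13 on the other arrays). Mycl, a further Myc paralog, was at -3.27, -0.15, -0.93 and -0.68 in AZD1480 replicates 1 to 4, against -0.13, -0.52, -0.37 and -0.34 in vehicle replicates 1 to 4. Its difference of -0.92 ± 0.62 (limma adjusted p = 0.974) became -0.25 without AZD1480 replicate 1. Mlxip, a nutrient-sensing partner of Mlx, was at -0.26 ± 0.22, and Mga, a Max partner that represses, at -0.13 ± 0.19. Without AZD1480 replicate 1 they were at -0.29 (Mlxip) and -0.25 (Mga). Mlxipl, the carbohydrate response factor ChREBP, singled out after its values were seen, was at 1.75, -2.04, -2.92 and -2.53 in AZD1480 replicates 1 to 4, against -0.73, -2.51, -1.77 and -3.10 in vehicle replicates 1 to 4. As for Mycn and Mxd1, AZD1480 replicate 1 was its highest tumour and vehicle replicate 1 its second highest, an order not counted over all genes. Of the 5 genes of this list, 3 were negative and 2 positive, with a median of -0.13, and 0 passed limma's test or had an unadjusted p under 0.05. Leaving out AZD1480 replicate 1 gave 4 negative and 1 positive, with a median of -0.25.

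Genes of proteins that bind or turn over Myc were taken next. Of 17 tested, Zbtb17 not being among them, 14 were positive and 3 negative, beside 56.5% positive over all genes. Their median was 0.083, with a range of -0.20 to 0.24, and 0 passed limma's test or an unadjusted p under 0.05. With AZD1480 replicate 1 left out, 10 were positive and 7 negative, with a median of 0.027, beside 53.8% positive over all genes. Smallest in p were Trrap, the scaffold of Myc's acetyltransferase complexes (0.20 ± 0.18), Ruvbl1, a chromatin-remodelling ATPase (-0.20 ± 0.19), and Fbxw7, the ubiquitin ligase subunit that marks Myc for degradation (0.17 ± 0.18). They were at 0.099 (Trrap), -0.089 (Ruvbl1) and 0.28 (Fbxw7) without AZD1480 replicate 1. Of the 14 genes of the Sin3 corepressor, through which Mxd proteins and Mnt act, 10 were positive and 4 negative, with a median of 0.059 and 0 at an unadjusted p under 0.05. The split was 7 positive and 7 negative without AZD1480 replicate 1, with a median of -0.0061. Ing2 (0.75 ± 0.36), Arid4a (-0.25 ± 0.17) and Sap30 (0.32 ± 0.25), all subunits of Sin3 complexes, had the smallest p. They were at 0.77 (Ing2), -0.24 (Arid4a) and 0.13 (Sap30) without AZD1480 replicate 1. Sin3b, singled out after its values were seen, was at 5.93 in AZD1480 replicate 1 and at 3.34 to 3.99 in the other AZD1480 tumours, against 3.504 to 3.93 in vehicle tumours.

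Of the 25 known Myc-induced ribosome and nucleolus genes, 12 were negative and 13 positive, with a median of 0.016 beside 0.045 over all genes. Without AZD1480 replicate 1 the counts were again 12 and 13, with a median of 0.00023. Limma called none at an adjusted p under 0.05, and 1 of the 25 was under 0.05 before adjustment, a share near the 3.46% of all genes: Ubtf, a factor of RNA polymerase I. Ubtf was at 5.02, 4.597, 4.96 and 4.76 in AZD1480 replicates 1 to 4, against 4.15, 4.40, 4.52 and 4.58 in vehicle replicates 1 to 4. The groups did not overlap, though the highest vehicle tumour nearly reached the lowest AZD1480 tumour. Of all genes, 1.21% were likewise higher in AZD1480 tumours without overlap. The Ubtf difference was 0.42 ± 0.17 (limma adjusted p = 0.974), and 0.36 without AZD1480 replicate 1 (limma unadjusted p = 0.0751). Bop1, a ribosome assembly factor, was at 0.41 ± 0.22 (0.28 without that array), and Npm1, the nucleolar protein nucleophosmin, at -0.28 ± 0.18 (-0.21 without it).

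Of the 30 Myc-induced metabolism and growth genes, 23 were positive and 7 negative, with a median of 0.15, and 20 were positive with a median of 0.06 without AZD1480 replicate 1. Limma called none. An unadjusted p under 0.05 with a positive difference was reached by 2, Slc7a5 and Tfrc, beside 1.72% of all genes, and 2, Slc7a5 and Cad, were higher without overlap, beside 1.21% of all genes. Slc7a5, a transporter of large neutral amino acids, was at 0.50, -0.56, -0.71 and -0.0051 in AZD1480 replicates 1 to 4, against -1.001, -0.90, -0.92 and -0.73 in vehicle replicates 1 to 4. All AZD1480 tumours lay above all vehicle tumours, by the least in replicate 3, and the difference was 0.69 ± 0.28 (limma adjusted p = 0.974), or 0.46 without AZD1480 replicate 1. Tfrc, the transferrin receptor, which is also induced by hypoxia and iron shortage, was at 1.32 ± 0.57 (1.01 without that array), and Cad, an enzyme of pyrimidine synthesis, at 0.58 ± 0.29 (0.64 without it). The level of Cad was -4.74, -4.76, -5.04 and -3.73 in AZD1480 replicates 1 to 4, against -5.38 to -5.06 in vehicle tumours. Its groups thus nearly touched, and AZD1480 replicate 4 lay highest. Without AZD1480 replicate 1, neither Slc7a5 nor Tfrc kept an unadjusted p under 0.05 (limma unadjusted p = 0.056 and 0.115). In their place 1 other gene of the list was higher at that threshold, beside 2.2% of all genes. It was Bcat1, an enzyme of branched-chain amino acid breakdown, at 1.67 (limma unadjusted p = 0.0133). Bcat1 was at 1.04 with all arrays (limma unadjusted p = 0.186), and it is named after its values were seen.

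Of the 10 genes known to be repressed by Myc, 7 were negative and 3 positive, with a median of -0.17, and 0 passed limma's test or an unadjusted p under 0.05. Without AZD1480 replicate 1 the counts were again 7 and 3, with a median of -0.12. Cdkn1a, the cell cycle inhibitor p21, was at 1.03, 1.602, 2.06 and 2.96 in AZD1480 replicates 1 to 4, against 1.22, 0.59, 1.43 and 1.70 in vehicle replicates 1 to 4. Its difference was 0.68 ± 0.43, and 0.97 without AZD1480 replicate 1 (limma unadjusted p = 0.0397). Without that array 1 gene of this list, Cdkn1a, was higher at an unadjusted p under 0.05, beside 2.2% of all genes. Cebpa, a differentiation factor, was at -0.61 ± 0.39, and at -0.20 without AZD1480 replicate 1, its lowest tumour (-3.47). Gadd45a, a stress-induced growth arrest gene, was at -0.42 ± 0.32, and at -0.58 without that array.

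**Figure D4:**
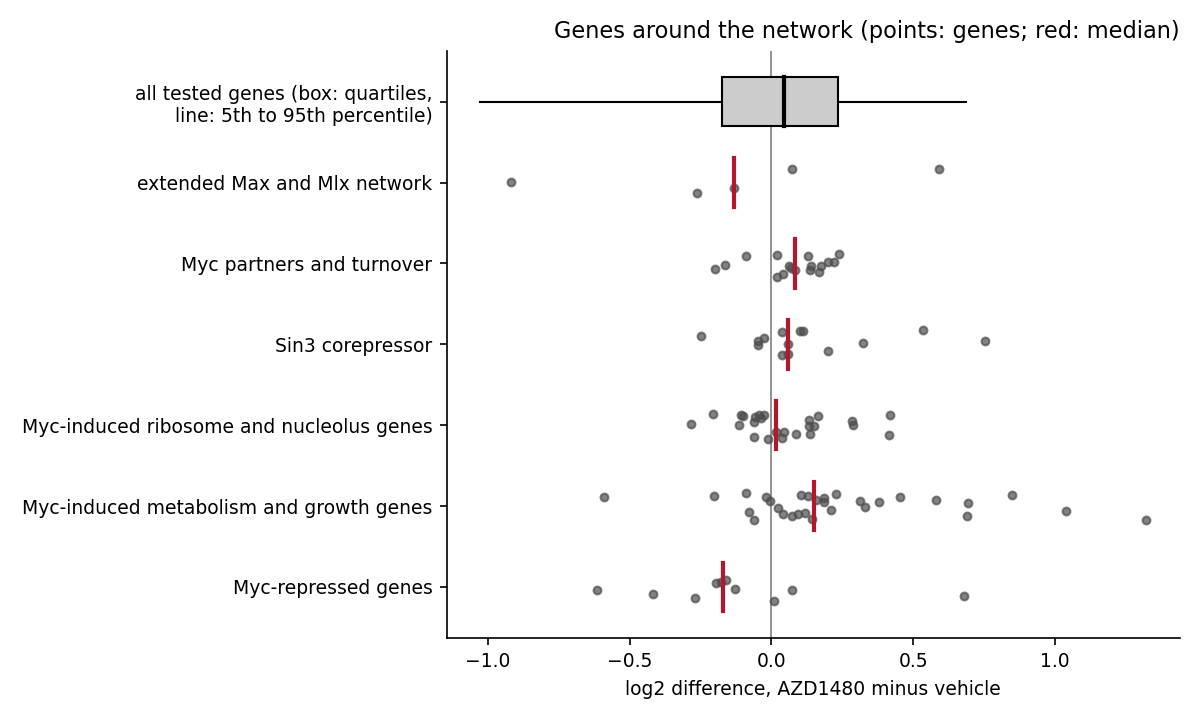
Log2 difference, AZD1480 minus vehicle (x axis), of each tested gene (points) in the 6 lists around the network, with list medians in red, under the quartiles of all 19778 tested genes. List medians lie between -0.17 and 0.15, and the median of all genes is 0.045.

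The genes whose values over the 8 arrays were most like those of Myc, by the smallest root mean square difference of mean-centred log2 levels, were Acad12 (0.099), Cln6 (0.11), Tom1l1 (0.14), Hacl1 (0.14) and Cd55b (0.14), where the median over all genes was 0.65. Each had its lowest value in AZD1480 replicate 1, as Myc did, which choosing them by likeness to Myc favours. Acad12, the closest, was at -2.36, -1.58, -0.96 and -1.14 in AZD1480 replicates 1 to 4, against -0.95, -0.74, -1.11 and -0.72 in vehicle replicates 1 to 4. Among the other members, Mnt (0.44) and Max (0.47) were nearest to Myc by this measure and Mycn (0.98) was farthest. The measure is not scaled for spread, so a member that varies little scores near without sharing a pattern. Neither Mnt nor Max had its lowest value in AZD1480 replicate 1.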

How the data were processed

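Total RNA from 8 tumours was labelled with Cy3. The scans were extracted with Agilent Feature Extraction 9.5.3, per the submitters' processing notes. The processed intensity was spatially and multiplicatively detrended within each array, per the file headers, which place the probes on mm9. In the value table that the authors deposited, values are on a log2 scale. All its columns have the median 8.36 and nearly identical sorted values, and each follows the raw mean intensity of its own array (r of 0.996 to 1.000). The origin of its offset stays unknown, and it was used as an alternative only.

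Log2 processed intensities were scaled by each array's 75th percentile, outlier-flagged spots were left out, and a probe was kept if well above background on at least 4 arrays (28340 probes). Of several kept probes of a gene, the brightest was used. A RefSeq accession named 26055 probes and 8652 kept the file's name. AZD1480 and vehicle were set against each other in limma 3.58.1 under R 4.3.3 (two-sided, treatment as the only term), with Benjamini-Hochberg adjustment over 19778 genes and 0.05 as the threshold. SEs and 95% intervals are limma's moderated ones, SDs are over arrays, and replicates are separate mice per the labels. The procedure was tested on simulated data. Slide 1 arrays had a 75th percentile of 4706 to 5795 intensity units and those of slide 2 one of 1587 to 2783, and no member's spot was saturated or flagged. Alternatives were each array left out, slide as a covariate, each slide alone, a replicate block, normexp (offset 50), quantile and median scaling, other filters, the authors' table, the mean of probes, array weights and an intensity trend.

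The members and the 16 gene lists (6 around the network, 10 of cell type markers) were chosen with earlier results of these data known. The rule for named genes takes all members, the 3 genes of each list around the network with the smallest p and the 5 genes most like Myc, leaving out clone and model names. Markers are named where a result needs them. Promoter sequences are from RefSeq on GRCm38.p6.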

Additional observations from a re-analysis of the deposited data

Results flagged for a closer look

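Myc in the vehicle group had 1 tumour apart from the others, which lay close together. Vehicle replicate 3 was at 0.75, while the other vehicle tumours were at 1.11, 1.10 and 1.09, and its gap to the nearest of them made up 0.945 of the group's range, which is above Dixon's 95% critical value for 4 samples. Of 18 groups examined, 1 for each of 9 kept member probes in AZD1480 and in vehicle, this was the only one over that value, and chance gives about 1 in 20. Without vehicle replicate 3 the Myc difference was -0.65. The gaps of AZD1480 replicate 1 stayed under the critical value, at 0.808 for Mycn, 0.778 for Mxd1 and 0.657 for Myc. Vehicle replicate 3 also stood apart in adipocyte markers, of which 6 of 8 were tested. These summed, in multiples of the array's 75th percentile, to 0.164 to 0.402 in AZD1480 tumours, against 34.6 in vehicle replicate 3 and 0.281 to 0.948 in the other vehicle tumours, with Cfd at 4.52 and Fabp4 at 3.11 in that tumour. B and plasma cell markers (5 of 7 tested) summed to 6.79 to 7.89 in AZD1480 tumours and 6.97 to 16.6 in vehicle tumours, with 16.6 in replicate 3. The part of these markers in its Myc level was not tested.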

How the results depend on the processing

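Over 21 alternatives, limma with Benjamini-Hochberg adjustment called 0 genes (451 to 1621 at an unadjusted p under 0.05), 0 members (0 to 1) and 0 genes of the lists around the network (0 to 5). Myc was negative in all 21, between -1.05 within slide 1 and -0.071 within slide 2, and -0.34 with array weights. With 1 array left out the differences ran from -0.74 to -0.28 for Myc, -0.36 to 0.31 for Mycn, 0.0098 to 0.18 for Max, -0.0304 to 0.45 for Mxd1, -0.12 to 0.0069 for Mxd3, -0.13 to 0.11 for Mxd4 and -0.18 to 0.053 for Mnt. Signs turned within slide 1 for Max (-0.063), within slide 2 for Mycn (-0.094), Mxd3 (0.021) and Mnt (0.21), with array weights for Mycn (-0.13) and Mxd3 (0.035), and for Mxd4 with normexp (0.01), the authors' value table (0.029) and the mean of both probes (0.033). The causes were not tested. Scalings moved the median of all genes by at most 0.027. With the replicate number as a block, Myc was at -0.56 (limma adjusted p = 0.838) and 0 genes were called (880 at an unadjusted p under 0.05). Deviations of same-numbered tumours correlated across genes at 0.36, 0.36, 0.13 and -0.059, and those of differently numbered tumours at -0.37 to 0.55. Same-numbered tumours also share a slide, so these values cannot show whether the numbers pair the tumours. Signal near background limited Mxi1 alone among the members.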
